A study of Mus musculus with 12 samples.

Results

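The resident macrophages of the mouse liver were followed by 10 marker genes (Clec4f, Timd4, Vsig4, Adgre1, Cd5l, Marco, C1qa, C1qb, C1qc and Cd68) through 12 RNA sequencing libraries. The 10 genes were taken by symbol from a count table of 55335 genes, in which each of the symbols stood on 1 row. The study asked how the receptor for thyroid-stimulating hormone (TSH), Tshr, acts in macrophages on insulin sensitivity. It compared male C57BL/6N mice with loxP sites around exon 10 to the stop codon of Tshr (Tshr f/f) with littermates that also carried Lyz2-Cre (Tshr MKO), in which the lysozyme promoter drives Cre in macrophages, monocytes and neutrophils. Both genotypes thus carried the floxed allele, and no library came from mice with Cre alone or without loxP sites.

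There were 4 groups of 3 libraries each. Bone-marrow-derived macrophages (BMDMs) came from Tshr f/f and Tshr MKO mice (6 weeks old by the labels, 6 to 8 weeks in the study's general protocol for these cells), were grown for 7 days with M-CSF (10 ng/mL), the growth factor that turns marrow cells into macrophages, and then received TSH (1 ng/mL) for 24 h, so that no BMDM library was without TSH. Livers came from Tshr f/f and Tshr MKO mice that had eaten a diet rich in fat from the age of 6 weeks on, for 9 weeks, and were taken 5 min after insulin (1.5 U/kg) at the end of a fast of 8 h. The labels number the 3 libraries of a group but do not tie them to animals, so the p-values measure the spread between these libraries only. Library totals ran from 33683981 to 40954211 counts in BMDMs and from 28962878 to 40420513 in livers.

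Kupffer cells are the macrophages that live in the liver sinusoids. They take up bacteria, dying cells and old red cells from the portal blood, and in mice they are seeded before birth and renew themselves in place, with help from monocytes when some are lost. Clec4f is a lectin found on mouse Kupffer cells, Timd4 a phosphatidylserine receptor of the long-lived ones, and Vsig4 a receptor for complement fragment C3b. Marco is a scavenger receptor, and Cd5l a protein that macrophages secrete under control of the liver X receptor. C1qa, C1qb and C1qc encode the chains of C1q, the part of complement that starts the classical pathway. Adgre1 (F4/80) and Cd68, a glycoprotein of lysosomes, are shared by most tissue macrophages, those grown from marrow included.

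The genes lie on 7 chromosomes (GENCODE M21, GRCm38), and no other annotated gene overlaps any of them. C1qb (chr4:136880129-136886187), C1qc (chr4:136889804-136893065) and C1qa (chr4:136895917-136898803) stand side by side on the minus strand, with 3616 and 2851 bases between neighbours. Clec4f is at chr6:83644542-83656187, Marco at chr1:120474538-120505024, Cd68 at chr11:69664213-69666153 and Vsig4 at chrX:96247203-96293438, all on the minus strand. Cd5l (chr3:87357881-87371073), Timd4 (chr11:46810800-46844332) and Adgre1 (chr17:57358691-57483527) are on the plus strand.

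The bases before the start of 4 members are printed for the results that follow: Clec4f had no read in any BMDM library, Timd4 and Marco were the members with the lowest p-values between the genotypes in BMDMs, and C1qb stands for the C1q genes, whose levels moved together. The sequences are from RefSeq (GRCm38.p6), run 5′ to 3′ towards the gene and end at the start RefSeq gives, except for Clec4f, whose window reaches into the GENCODE gene and is printed up to the first GENCODE base (179 of 250 bases). Capitals mark a match to GAGGAAG (a core of the motif of PU.1, a transcription factor of myeloid cells) or TGCTGAC (a core of the MAF motif), read on both strands. CACGTG, an E-box, was searched as well.
Clec4f (chr6:83656188-83656366, minus strand): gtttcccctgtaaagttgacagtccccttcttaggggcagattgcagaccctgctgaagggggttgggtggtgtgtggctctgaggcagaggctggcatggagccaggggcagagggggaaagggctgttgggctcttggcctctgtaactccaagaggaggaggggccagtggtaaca
Timd4 (chr11:46810549-46810798, plus strand): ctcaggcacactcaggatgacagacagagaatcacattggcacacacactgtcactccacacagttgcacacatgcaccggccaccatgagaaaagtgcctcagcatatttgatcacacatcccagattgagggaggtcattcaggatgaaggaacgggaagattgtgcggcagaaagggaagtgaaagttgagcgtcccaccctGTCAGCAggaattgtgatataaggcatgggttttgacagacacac
Marco (chr1:120505025-120505274, minus strand): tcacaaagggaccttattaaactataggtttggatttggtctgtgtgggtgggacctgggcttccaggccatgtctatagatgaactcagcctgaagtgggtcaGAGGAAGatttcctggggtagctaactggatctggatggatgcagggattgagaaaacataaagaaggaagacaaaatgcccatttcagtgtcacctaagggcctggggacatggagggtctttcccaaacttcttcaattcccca
C1qb (chr4:136886201-136886450, minus strand): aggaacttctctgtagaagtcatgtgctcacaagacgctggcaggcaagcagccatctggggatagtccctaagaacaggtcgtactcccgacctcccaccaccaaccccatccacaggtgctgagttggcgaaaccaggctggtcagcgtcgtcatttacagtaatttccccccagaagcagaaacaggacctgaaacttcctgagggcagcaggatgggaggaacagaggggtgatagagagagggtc

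RefSeq promoters were matched for 8 of the 10 members, all but C1qa and Adgre1. In the 250 bases before the RefSeq start, searched in full for all 8, GAGGAAG was found in Marco, from 146 bases before the start, and on the opposite strand in Cd5l (67 bases) and C1qc (194 bases). It was present in 10.6% of 32851 mouse promoters of the same length. TGCTGAC was found in Timd4, on the opposite strand and 45 bases before the start, and in 3.81% of all promoters. CACGTG was in none of the 8 windows and in 6.02% of all promoters. A match describes the letters in the window and not a bound site.

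The labels were checked first, as far as the counts allowed. Tshr had 0, 0 and 2 counts in the BMDMs of Tshr f/f mice, 0, 0 and 5 in those of Tshr MKO mice and 0 in all 6 livers, too few to check the deletion. Levels are given as CPM, the standard unit of counts relative to the TMM-scaled total of the library. The macrophage lysozyme Lyz2 was at 8871, 9844 and 8773 CPM in BMDMs from Tshr f/f mice. In those from Tshr MKO mice it was at 16149, 14537 and 22320 CPM, without overlap (adjusted p = 0.218 by edgeR and 0.00114 by DESeq2). These Lyz2 levels do not check the genotype labels of the BMDMs. The 6 hepatocyte genes examined summed to at most 0.0783 CPM in BMDMs. In livers the same hepatocyte genes summed to 77428–99539 CPM. Liver Lyz2 was 27.7, 59.9 and 44.7 CPM for Tshr f/f and 1.56, 106 and 43.7 CPM in Tshr MKO libraries, the lowest of these in a liver whose Clec4f level was 129 CPM. Directions between the genotypes below follow the library labels in both tissues. The study's own listing gives some of the same liver counts under the opposite genotype headings, so the sign of every liver difference between the genotypes depends on which of the listings is right.

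Within a library, levels of different genes were compared per kilobase of exon, with 1 set of TMM scaling factors over all 12 libraries. In livers the mean level ran from 101.98 CPM per kb for Cd5l (SD 40.4, n = 6) to 7.04 for Timd4 (SD 3.27). Cd5l was above C1qb (79.9) and C1qb above C1qa (68.8) in 6 of 6 livers, whereas C1qa and Clec4f (67.2) lay too close to order, with C1qa higher in 2 of 6. Marco (48.7) and C1qc (37.2) exchanged places, with Marco higher in 3 of 6 livers, and Vsig4 followed at 32.6. The pan-macrophage genes Cd68 (16.9) and Adgre1 (9.59) were near the bottom of the order in liver.

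In BMDMs the same genes stood in another order. Cd68 led with a mean of 740 CPM per kb (SD 123.4, n = 6), followed by C1qb at 666 (SD 296), C1qa at 451 and C1qc at 276. Adgre1, at 273 (SD 41.6), could not be ordered against C1qc, which was higher in 4 of 6 libraries. Marco (63.4) and Cd5l (38.6) came next, again not in a fixed order, with Marco higher in 4 of 6. Vsig4 (3.26) and Timd4 (2.11) were low, and Clec4f had no count. The level of each gene in each library is drawn in the plot of 10 panels.

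**Figure D1:**
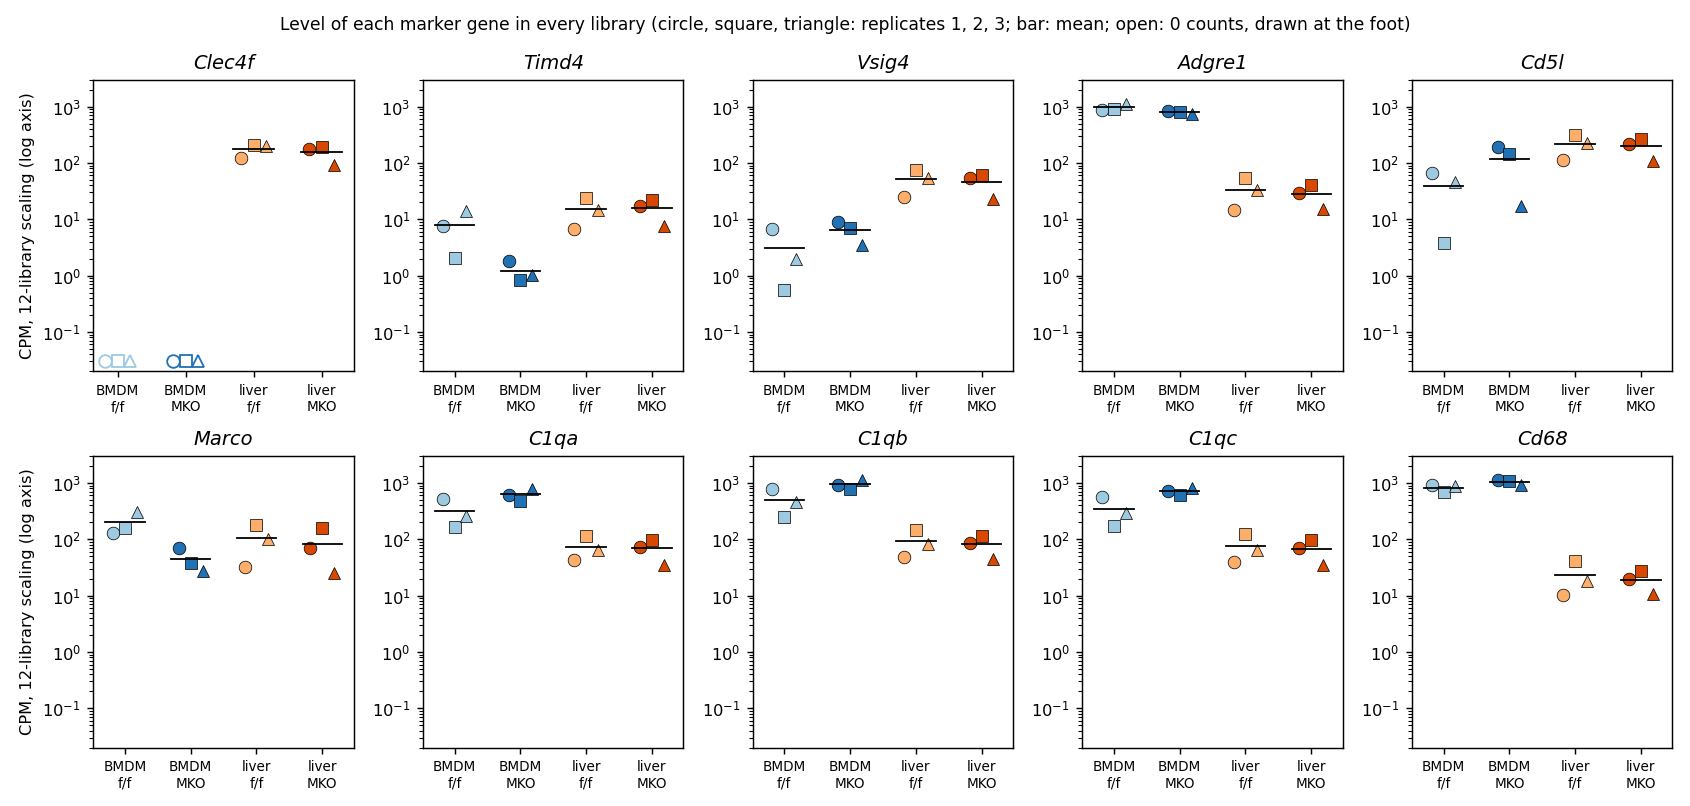
CPM of each marker gene (log axis, TMM factors over all 12 libraries) in BMDMs and livers of Tshr f/f and Tshr MKO mice, 1 symbol per library and a bar at the mean of 3; open symbols stand for 0 counts. Clec4f was at 0 in all 6 BMDM libraries and at 92.4–211 CPM in livers, while Adgre1 and Cd68 were higher in every BMDM library than in any liver.

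The comparison of livers with BMDMs asks which marker genes belong to whole liver tissue and which to macrophages grown from marrow. It sets a tissue of many cell types against 1 cultured cell type, and tissue, culture, TSH, diet, fasting and insulin cannot be told apart in it. In bulk RNA, fewer cells of a type and less RNA per cell cannot be told apart either. At an adjusted p under 0.05 (edgeR quasi-likelihood, Benjamini-Hochberg over 17246 genes), 4 members were higher in liver and 5 lower. Of all genes tested, 40.5% were called higher in liver and 37.3% lower, near the shares of the members. With library totals as the only scaling, 30.3% of the genes called were higher in liver, against 52.1% with TMM, and 8 members were called, all but Marco and Cd5l.

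Clec4f was the gene that the tissues separated most plainly. It had 2682, 5620 and 4426 counts in the 3 Tshr f/f livers, 4620, 5876 and 1963 counts in the 3 Tshr MKO livers, and 0 counts in each of the 6 BMDM libraries. With the limit of 3 counts that a count of 0 allows in each BMDM library (0.0498–0.0849 CPM), the mean liver level of 166 CPM was at least 2763-fold higher (adjusted p = 2.55e-07, edgeR). That limit covers counting error only.

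Vsig4 and Timd4 were low but present in BMDMs. With 12-library scaling, Vsig4 was at 6.80, 0.565 and 1.98 CPM in BMDMs from Tshr f/f mice and 9.07, 7.10 and 3.54 CPM in those from Tshr MKO mice, against 25, 75.0 and 53.4 CPM for Tshr f/f livers and 53.3, 60.5 and 23.3 CPM in Tshr MKO livers. Every liver lay above every BMDM library, and the log2 difference was 3.42 (SE 0.57, adjusted p = 0.000215, edgeR). Timd4 was at 7.67, 2.09 and 14.0 CPM in BMDMs from Tshr f/f mice and 1.82, 0.822 and 1.01 CPM in those from Tshr MKO mice, against 6.83, 23.9, 14.3, 17.3, 21.7 and 7.63 CPM in livers. Its ranges overlapped through the Tshr f/f BMDMs. The log2 difference for Timd4 was 2.30 (SE 0.49, adjusted p = 0.00128), and it was 0.94 (adjusted p = 0.299) in Tshr f/f libraries alone and 3.65 (adjusted p = 4.78e-04) in Tshr MKO libraries alone.

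Cd5l was the member nearest to the threshold. It was at 65.9, 3.85 and 45.9 CPM in BMDMs from Tshr f/f mice and 194, 145 and 16.9 CPM in those from Tshr MKO mice, against 111–316 CPM in livers, so the 2 highest BMDM libraries lay within the liver range. The log2 difference was 1.62 (SE 0.68, adjusted p = 0.0477, edgeR), and the call was lost in 14 of 22 alternatives, with upper-quartile scaling (adjusted p = 0.0731) and without Tshr f/f liver replicate 2 (adjusted p = 0.0954) among them. Marco did not differ detectably, at 26.9–310 CPM in BMDMs and 25.7–178 CPM in livers (log2 difference −0.01, SE 0.50, adjusted p = 0.98).

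The C1q genes, Adgre1 and Cd68 were lower in liver, and for each of these 5 genes every liver lay under every BMDM library. Cd68 was at 691–1117 CPM in BMDMs and 10.1–41.5 CPM in livers, a log2 difference of −5.45 (SE 0.39). Adgre1 was at 752–1132 CPM in BMDMs and 14.4–53.4 CPM in livers, a log2 difference of −4.83 (SE 0.35). Adjusted p-values for the 5 genes were between 2.91e-07 (Cd68) and 6.56e-05 (C1qa). The C1q genes were closer between the tissues, with log2 differences of −2.63 (SE 0.37) for C1qa, −2.99 (SE 0.37) for C1qb and −2.79 (SE 0.39) for C1qc. Ratios of the C1q genes to the pan-macrophage genes therefore differed between the tissues: C1qb had 2.51–3.36 counts for each count of Adgre1 in the 6 livers and 0.270–1.53 in the 6 BMDM libraries.

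Between the 3 C1q chains the proportions moved little. Of the summed C1q level per kb, C1qb made up 46.6–51.3% in BMDMs and 41.8–44.0% in livers, C1qa 30.3–33.9% and 35.7–38.5%, and C1qc 18.4–21.3% and 19.3–20.8%. The shares of C1qa and C1qb did not overlap between the tissues. In the plot of C1qa and C1qc against C1qb, livers had more C1qa for their C1qb than BMDMs had, while the level of C1qb itself ran from 44.3 to 1149 CPM. The genes for the proteins that act with C1q in the classical pathway went the other way between tissues: all 6 examined (C1ra, C1s1, C2, C4b, C3 and Serping1, which are made by hepatocytes) were higher in liver, with a median log2 difference of 4.34 beside 0.04 over all genes tested.

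**Figure D2:**
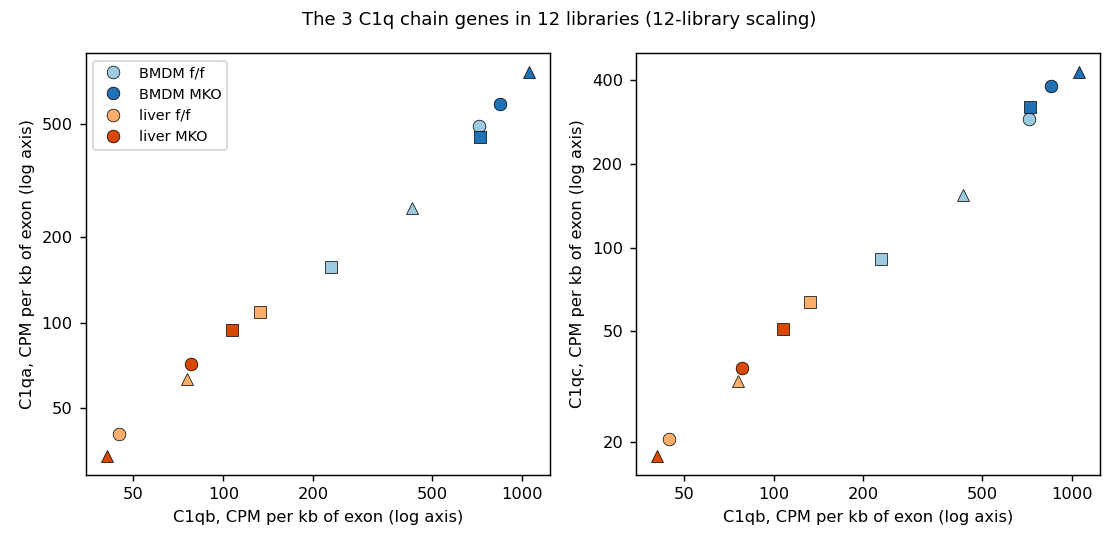
Level of C1qa (left) and C1qc (right) against C1qb in CPM per kb of exon, both axes log, 1 symbol per library (circle, square and triangle for replicates 1, 2 and 3). The livers lie at the low end, and in the left panel they are shifted towards C1qa, which made up 35.7–38.5% of the summed C1q level in livers and 30.3–33.9% in BMDMs.

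The other lists place these differences. Of 15 further Kupffer cell genes, 8 were called higher and 5 lower in liver (median log2 difference 1.27). Hpgd, which breaks down prostaglandins, differed by 6.74 on the log2 scale, the adhesion gene Cdh5 by 5.91 and the haemoglobin scavenger receptor Cd163 by 3.64. Of 18 general macrophage genes, 17 were lower in liver and none higher (median −4.26), and of 12 genes of monocyte-derived macrophages 11 were lower and none higher (median −3.98). Cdh5 is also a gene of endothelium, so its level in a whole liver is not one of macrophages alone. Hpgd did not follow Clec4f over the livers. It was highest, at 97.6 CPM scaled within the tissue, in Tshr MKO replicate 3, the liver with the lowest Clec4f.

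In BMDMs, the comparison of the genotypes asks whether macrophages from Tshr MKO mice differ in these genes under TSH. No member passed an adjusted p of 0.05 by edgeR (0 of 9 tested, lowest adjusted p 0.218), nor did any of the 15372 genes (0.00%). At an unadjusted p under 0.05 there were 3 members (Marco and Timd4 lower in Tshr MKO, C1qc higher), beside 17.9% of all genes. Clec4f was at 0 throughout and was not tested. Levels in this comparison and in the next were scaled within the tissue.

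Marco was at 174, 220 and 421 CPM in BMDMs from Tshr f/f mice and 94.7, 50.8 and 36.1 CPM in those from Tshr MKO mice. Each Tshr MKO library was lower than each Tshr f/f library, with a log2 difference of −2.17 (SE 0.49, unadjusted p = 0.00368, adjusted p = 0.218, edgeR). Timd4 was at 10.4, 2.89 and 19.0 CPM with Tshr f/f and 2.48, 1.12 and 1.35 CPM with Tshr MKO cells, again without overlap, though Tshr f/f replicate 2 was close to Tshr MKO replicate 1. The log2 difference for Timd4 was −2.70 (SE 0.71, unadjusted p = 0.00813, adjusted p = 0.218). DESeq2 called 2 members, Marco (adjusted p = 7.72e-04) and Timd4 (adjusted p = 0.00312), beside 7.96% of all genes.

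Both differences kept their sign with any library left out, between −2.64 and −1.69 for Marco and between −3.15 and −2.01 for Timd4. The smallest size for both was reached without Tshr f/f replicate 3, the library with the highest level of both genes and with a scaling factor of 0.738, where the other 5 BMDM libraries had 0.993–1.11. Unadjusted p-values were then 0.00862 for Marco and 0.0229 for Timd4.

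The C1q genes stood higher in Tshr MKO BMDMs by about the same amount. C1qb was at 1054, 344 and 634 CPM with Tshr f/f and 1251, 1072 and 1541 CPM with Tshr MKO cells, and C1qc at 757, 241 and 403 against 998, 837 and 1100 CPM. Neither gene overlapped between the groups, but Tshr f/f replicate 1 came close to Tshr MKO replicate 2. C1qa was at 692, 225 and 358 CPM against 834, 641 and 1060 CPM and overlapped through the same pair of libraries. Log2 differences were 0.99 (SE 0.44) for C1qa, 0.93 (SE 0.42) for C1qb and 1.07 (SE 0.42) for C1qc, with unadjusted p-values of 0.0626, 0.0660 and 0.0427 and adjusted p-values of 0.295, 0.299 and 0.266 (edgeR). The size rested in part on Tshr f/f replicate 2, the lowest library for each: without it the difference of C1qc was 0.75, and without Tshr f/f replicate 1 it was 1.63. Its unadjusted p stayed under 0.05 only in the latter of the 6 leave-outs and reached 0.108 without Tshr MKO replicate 3.

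Cd5l and Vsig4 varied widely between BMDM libraries of the same genotype. Cd5l was at 89.3, 5.31 and 62.3 CPM with Tshr f/f and 263, 198 and 22.7 CPM with Tshr MKO cells (log2 difference 1.63, SE 1.14, adjusted p = 0.464). Its SD over the 6 libraries was 2.05 on the log2 scale, higher than in 99.6% of the genes tested in BMDMs. Vsig4 was at 9.21, 0.779 and 2.69 CPM and at 12.3, 9.68 and 4.75 CPM (log2 difference 1.07, SE 0.84, adjusted p = 0.509).

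Adgre1 and Cd68 were the steadiest members. Adgre1 was at 1162, 1272 and 1536 CPM with Tshr f/f and 1137, 1089 and 1008 CPM with Tshr MKO cells, without overlap but with a log2 difference of only −0.30 (SE 0.20, adjusted p = 0.438). Cd68 was at 1233, 953 and 1186 CPM against 1519, 1479 and 1214 CPM (log2 difference 0.32, SE 0.21, adjusted p = 0.428). Their SDs over the 6 BMDM libraries were 0.21 and 0.24 on the log2 scale, under the median of 0.32 over all genes tested. In all, the groups did not overlap for 5 of the 9 members tested (Timd4, Adgre1 and Marco lower, C1qb and C1qc higher in Tshr MKO), beside 28.7% of all genes.

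**Figure D3:**
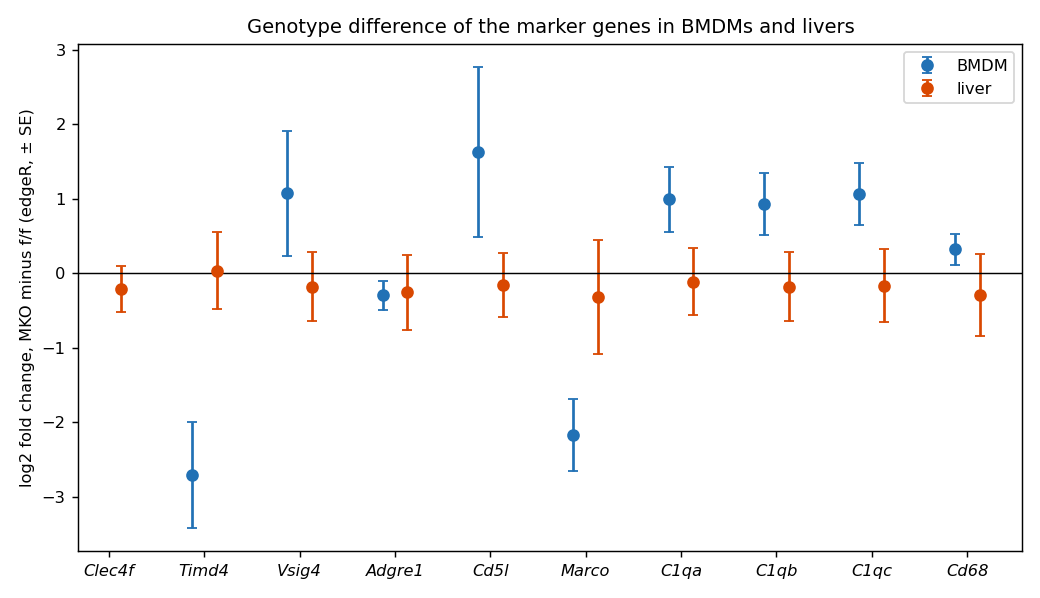
Log2 fold change of each marker gene between Tshr MKO and Tshr f/f (edgeR, points with SE bars, 3 libraries per group) in BMDMs (blue) and livers (orange); Clec4f has no BMDM value. In BMDMs the points spread from −2.70 (Timd4) to 1.63 (Cd5l), and in livers they lie between −0.32 (Marco) and 0.03 (Timd4), each within 1 SE of 0.

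Other macrophage genes in BMDMs differed in both directions as well, none of them at an adjusted p under 0.05. Their counts at an unadjusted p under 0.05 stand beside 17.9% of all genes tested. Of 12 genes of monocyte-derived macrophages, 10 were higher and 2 lower in Tshr MKO, 6 and 2 of them at an unadjusted p under 0.05, and their summed level was 4664–7360 CPM for Tshr f/f and 8021–10691 CPM in Tshr MKO libraries, most of it Gpnmb. Of 15 further Kupffer cell genes, 3 were higher and 3 lower at an unadjusted p under 0.05, with Vcam1 (−3.58, SE 0.88) and Cd163 (1.02, SE 0.31) among them. For Cd163 the unadjusted p was 0.0588 without Tshr MKO replicate 1 and 0.0503 without Tshr MKO replicate 3. Of 11 genes tested for the uptake of dying cells, the process Timd4 serves, 5 were higher and 1 lower at the same unadjusted threshold, and of the 6 complement partners of C1q 5 were lower and none higher, with C1ra (−1.36, SE 0.27) and C3 (−1.56, SE 0.39) among them. Genes of general macrophages were balanced, with 9 of 18 higher and 9 lower (median −0.01), 3 and 2 of them at an unadjusted p under 0.05. Markers of other cells summed to 197–725 CPM for Tshr f/f and 204–343 CPM for Tshr MKO BMDMs (neutrophils), 5.88–18.2 and 4.67–17.9 CPM (T cells) and 0.576–2.36 and 1.62–4.13 CPM (B cells). Most of the neutrophil sum was Csf3r, a receptor that macrophages also express, at 679 CPM in Tshr f/f replicate 3. In that library S100a9, Ly6g and Elane were at 0, but S100a8 was at 45.6 CPM. S100a8 was lower in Tshr MKO BMDMs, with a log2 difference of −2.37 (SE 0.81, unadjusted p = 0.0252, edgeR). Without Tshr MKO replicate 2 its unadjusted p was 0.0783. Retnlg (3.8, SE 0.63) and Mpo (2.01, SE 0.73) were higher at an unadjusted p under 0.05, at no more than 1.71 and 0.966 CPM. For Mpo the unadjusted p (edgeR) was 0.103 without Tshr MKO replicate 1. The part of these other genes in the differences of the members was not tested.

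In livers, the comparison of the genotypes asks whether the resident macrophage genes differ in Tshr MKO mice fed the diet rich in fat. The study reported lower body weight and fat mass in Tshr MKO mice on this diet. It also reported less Adgre1 mRNA by qRT-PCR, and fewer macrophages by flow cytometry, in their livers. Genotype and body weight cannot be told apart here. No member passed, with 0 of 10 at an adjusted p under 0.05 beside 0.00% of all 15062 genes, and 0 of 10 at an unadjusted p under 0.05 beside 10.5% of all genes. The groups overlapped for all 10 members, where 17.3% of all genes did not overlap. DESeq2 called none of the members and 1.79% of all genes. Log2 differences ran from −0.32 for Marco (SE 0.76) to 0.03 for Timd4 (SE 0.52), with a median of −0.18 beside −0.01 over all genes tested.

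The member with the smallest error was Clec4f. It was at 90.8, 155 and 147 CPM for Tshr f/f and 129, 140 and 69.5 CPM in Tshr MKO livers (log2 difference −0.21, SE 0.31, adjusted p = 0.863, edgeR). Timd4 was at 5.11, 17.6 and 10.6 CPM and at 12.6, 15.7 and 5.73 CPM, and Vsig4 at 18.7, 55.0 and 39.2 CPM and at 38.7, 43.6 and 17.5 CPM. In each of these genes 1 library of either genotype was far below the others.

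The same libraries were low for the remaining members. Cd5l was at 84.5, 232 and 165 CPM for Tshr f/f and 158, 191 and 83.1 CPM in Tshr MKO livers. Marco, the member with the widest range, was at 23.8, 130 and 74.4 CPM against 50.8, 113 and 19.3 CPM. C1qb was at 36.3, 106 and 60.7 CPM against 61.8, 84.1 and 33.3 CPM, and C1qa (26.7–83.4 CPM) and C1qc (26.0–90.3 CPM) had their lowest and highest values in the same libraries as C1qb. Adgre1 was at 10.8, 39.2 and 24.2 CPM against 21.7, 28.98 and 11.6 CPM, and Cd68 at 7.55, 30.5 and 13.4 CPM against 14.1, 19.95 and 7.93 CPM.

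Tshr f/f replicate 1 and Tshr MKO replicate 3 were thus the 2 lowest livers for 10 of 10 members, and Tshr f/f replicate 2 was the highest for 10 of 10. Relative to each gene's mean over the 6 livers, the members lay at 0.347–0.745 in Tshr f/f replicate 1, at 0.281–0.570 in Tshr MKO replicate 3 and at 1.27–1.96 in Tshr f/f replicate 2. The highest liver had 2.23 times the level of the lowest for Clec4f, 4.04 times for Cd68 and 6.76 times for Marco. SDs on the log2 scale were 0.46 (Clec4f) to 1.13 (Marco), which placed the members above 83.2% to 99.2% of all genes tested in liver. The 10 genes share libraries and scaling, so their common order is a description and not 10 separate observations.

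**Figure D4:**
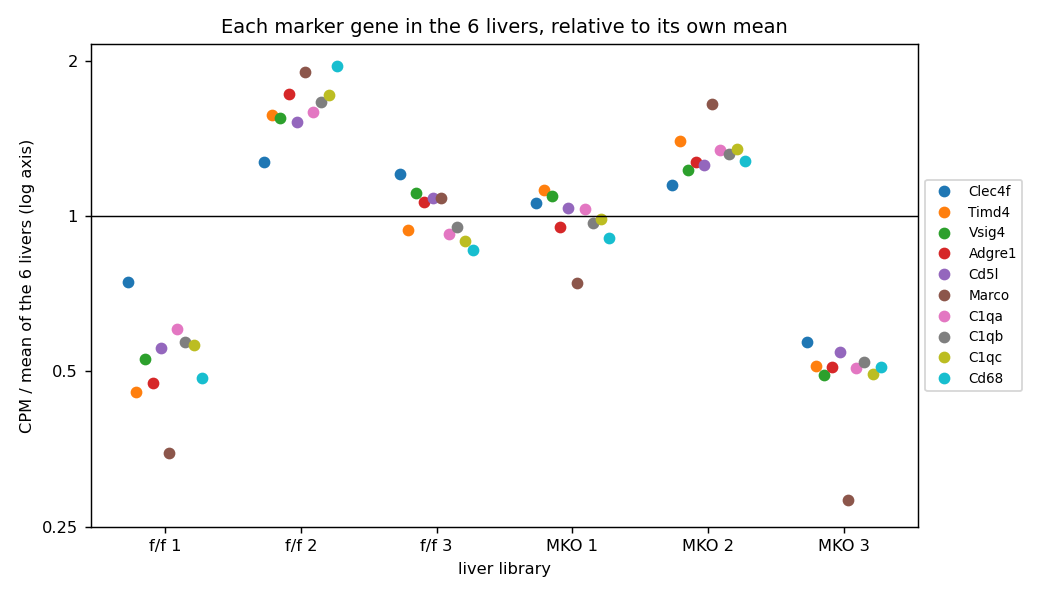
CPM of each marker gene in each liver, divided by the mean of that gene over the 6 livers (log axis), 1 colour per gene. The points of Tshr f/f replicate 1 and Tshr MKO replicate 3 all lie under 1, those of Tshr f/f replicate 2 and Tshr MKO replicate 2 all above it, and Clec4f moves least.

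The sign of the liver difference depended on single libraries. Without Tshr f/f replicate 2, 9 of 10 members were higher in Tshr MKO livers (median 0.31), and without Tshr MKO replicate 3, 9 of 10 were higher (median 0.11). Without Tshr f/f replicate 1 or without Tshr MKO replicate 2, 10 of 10 were lower (medians −0.47 and −0.49). With the 2 lowest livers left out together, 1 from each genotype, the median was −0.19 and no member had an unadjusted p under 0.05.

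**Figure D5:**
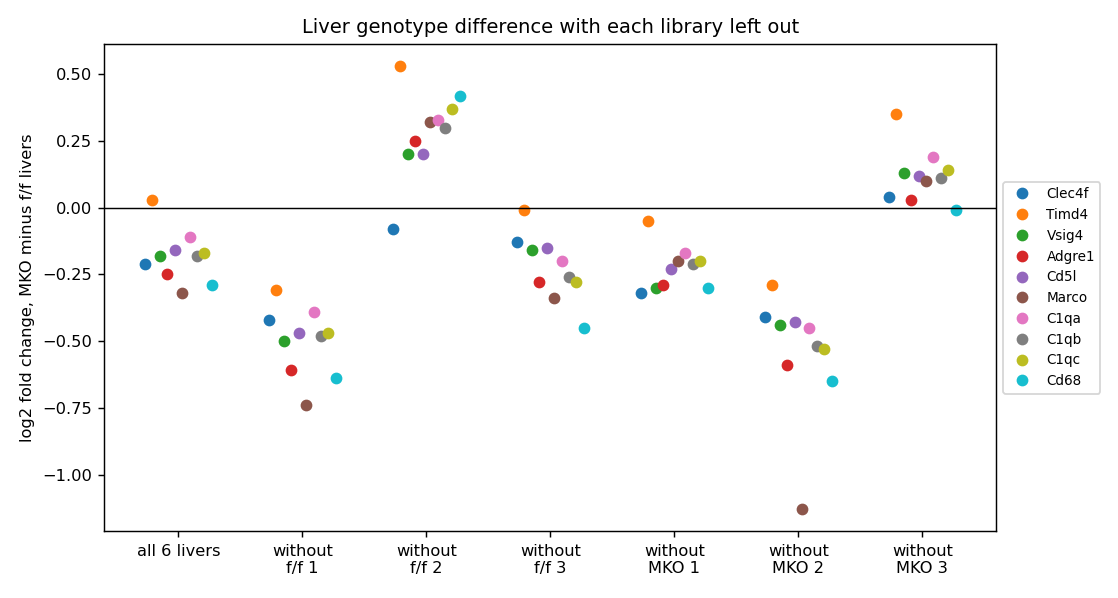
Log2 fold change of each marker gene between Tshr MKO and Tshr f/f livers (edgeR) with all 6 livers and with each liver left out in turn, 1 colour per gene. The genes lie above 0 when Tshr f/f replicate 2 is left out, apart from Clec4f, and when Tshr MKO replicate 3 is left out, apart from Cd68.

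The identifiers of the liver libraries begin with 1 of 2 letters, whose meaning the labels do not give. Among the 3 livers of the first letter (2 Tshr f/f, 1 Tshr MKO), 10 of 10 members were lower in Tshr MKO, by a median of −0.88 on the log2 scale. Among the 3 of the other letter (1 Tshr f/f, 2 Tshr MKO), 9 of 10 were higher, by a median of 0.16. Both low livers and the highest one carry the first letter. With the letter as a covariate, all 10 members were lower in Tshr MKO (median −0.44), none with an unadjusted p under 0.05.

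Relative to Clec4f in the same library, the genotypes overlapped as well. For each count of Clec4f the livers had 0.931–1.50 counts of Cd5l, with means of 1.18 (SD 0.29, n = 3) in Tshr f/f and 1.26 (SD 0.09, n = 3) in Tshr MKO. Counts of C1qb were 0.400–0.684 per count of Clec4f, with means of 0.499 and 0.520, and counts of Timd4 0.0563–0.113, with means of 0.0805 and 0.0974. Marco had the widest range, 0.262–0.841. The highest ratio was that of Tshr f/f replicate 2 for all 9 other members.

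Markers of other liver cells were also unequal between the libraries. The summed level of 8 genes of sinusoidal endothelium was 54.2, 210 and 238 CPM for Tshr f/f and 193, 198 and 151 CPM in Tshr MKO livers, and that of 8 genes of stellate cells 63.2, 436 and 263 CPM and 248, 248 and 177 CPM, so Tshr f/f replicate 1, low in the members, was the lowest liver for both lists. A list of 7 neutrophil genes summed to 71.2, 34.4 and 12.1 CPM and to 13.2, 25.5 and 21.1 CPM, highest in Tshr f/f replicate 1. Cholangiocyte (7.40–13.3 CPM), dendritic cell (7.38–12.4 CPM), B cell (1.69–4.74 CPM), T cell (0.778–3.80 CPM) and NK cell (0–0.763 CPM) genes were low in livers. Their part in the spread of the members was not tested.

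Further macrophage genes in liver were examined by list, beside 10.5% of all genes tested with an unadjusted p under 0.05. Of 15 other Kupffer cell genes, none had an unadjusted p under 0.05, with a median log2 difference of −0.05. Of 18 general macrophage genes, 15 were lower in Tshr MKO and none had an unadjusted p under 0.05 (median −0.25). Of 12 genes of monocyte-derived macrophages, 11 were lower (median −0.76), 2 of them at an unadjusted p under 0.05: Chil3 (−3.13, SE 0.73, adjusted p = 0.334) and the chemokine receptor Ccr2 (−1.39, SE 0.43, adjusted p = 0.368). Chil3, a chitinase-like protein of myeloid cells, was at 11.1, 3.12 and 1.73 CPM for Tshr f/f and 0.531, 0.548 and 0.743 CPM for Tshr MKO livers, highest in Tshr f/f replicate 1, the liver highest in neutrophil genes. Without that liver its difference was −2.00 (unadjusted p = 0.00155, edgeR). For Ccr2 the unadjusted p was 0.0507 without Tshr MKO replicate 1. Of 6 signals that sinusoidal cells send to Kupffer cells (Csf1, Il34, Tgfb1, Dll4, Gdf2 and Bmp10), 3 were higher and 3 lower, none at an unadjusted p under 0.05.

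Genes near to Clec4f over the 6 livers were sought among 4416 genes of similar spread, by the root mean square distance between log2(CPM + 0.5) values centred on each gene's own mean. The 5 nearest were Vopp1 (0.083), Gria3 (0.098), Sncaip (0.099), Rims3 (0.102) and Unc5a (0.103). All 5 were low, between 0.106 CPM (Sncaip) and 5.57 CPM (Rims3), where Clec4f was at 69.5–155 CPM. The added 0.5 narrows the spread of such low genes, and Sncaip ran from 0.106 to 0.690 CPM, wider in proportion than Clec4f, so nearness on this scale is not a shared profile of levels. Among the members that fell in the same range of spread, Cd5l came nearest (distance 0.215), followed by Vsig4 at rank 223, C1qa at rank 288 and C1qb at rank 393.

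Whether the genotype difference itself differed between livers and BMDMs was tested by an interaction over all 12 libraries. None of the 9 members with counts in both had an adjusted p under 0.05 (beside 0.00580% of 17246 genes), and 1 of 9, Timd4, had an unadjusted p under 0.05 (beside 14.5%). For Timd4 the difference in liver exceeded that in BMDMs by 2.74 on the log2 scale (SE 0.96, unadjusted p = 0.0159, adjusted p = 0.25, edgeR). For Marco the gap was 1.86 (SE 1.01, unadjusted p = 0.0939), and for C1qc it was −1.22 (SE 0.72, unadjusted p = 0.12). If the liver headings were turned, these interaction sizes would change as well. A difference seen in BMDMs and not in livers was therefore not shown to be particular to BMDMs.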

How the data were processed

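The authors deposited a table of read counts per gene for 12 strand-specific libraries (mm10), made with FastQC 0.11.2, STAR and StringTie according to the submitters' notes. How reads were assigned to genes is not given in the sources used here. Counts were tested with edgeR 4.0.16 (quasi-likelihood, TMM factors, filterByExpr) within BMDMs, within livers and over all 12 libraries, with Benjamini-Hochberg adjustment over all genes tested. The SE is the log2 fold change over the square root of F. Alternatives used DESeq2 1.42.0, other scalings, filters and blocks, and each library left out. Exon lengths came from GENCODE M21, and log2 CPM values had 0.5 added. Scripts ran in R 4.3.3 and python 3.11.15, and the fits were tested on simulated data. The members and the gene lists were chosen with earlier results of these data known. Named were the members, Tshr, Lyz2, at most 3 genes per list and comparison with the lowest p-values, and the 5 genes nearest to Clec4f. Csf3r was named for its level, and Gpnmb, as the main part of a sum, was named after its values were seen. S100a9, Ly6g and Elane were named in BMDMs for a level of 0 in Tshr f/f replicate 3. The lists of C1q partners and of signals to Kupffer cells were printed in full. The study's MARS test on summed counts was not used here.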

Additional observations from a re-analysis of the deposited data

How the results depend on the processing

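The scaling, the filter on low counts and the replicate block (the replicate number as a block) changed no call between the genotypes: 0 members were called in BMDMs and 0 in livers with the block, and 8 between tissues instead of 9, as Cd5l was lost. The replicate numbers gave correlations of 0.096, 0.013 and 0.102 in BMDMs and −0.056, 0.217 and −0.021 in livers, and the labels give no pairing. DESeq2 called 2 members in BMDMs (1223 genes) where edgeR called 0. Over all genes, edgeR called 0 in BMDMs but 13 without Tshr f/f replicate 2 and 150 with all 12 libraries in 1 fit, 0 in livers but 7 without Tshr f/f replicate 2 (DESeq2 269), and 1 in the interaction but 341 without Tshr f/f BMDM replicate 2 (DESeq2 774). With each library left out, 0 members were called in either genotype comparison and 8 to 9 between tissues. Scaling by library totals, chosen after seeing the data, moved the median tissue difference of all genes from 0.04 to −0.85, and Cd5l was no longer called (0.77). Marco between tissues was 0.04 with a mean of at least 50 counts, 0.88 in Tshr MKO and −0.93 in Tshr f/f libraries alone, −0.85 with library totals, 0.41 without the 2 lowest livers and −0.43 to 0.22 with each library left out. Timd4 in liver was −0.27 with the letter as covariate and −0.31 to 0.53 with each library left out. With each library left out, the liver differences ran from −0.42 to 0.04 for Clec4f, −0.50 to 0.20 for Vsig4, −0.61 to 0.25 for Adgre1, −0.47 to 0.20 for Cd5l, −1.13 to 0.32 for Marco, −0.45 to 0.33 for C1qa, −0.52 to 0.30 for C1qb, −0.53 to 0.37 for C1qc and −0.65 to 0.42 for Cd68. The interaction of Adgre1 was −0.02 with upper-quartile scaling, −0.16 with library totals, −0.02 without the 2 lowest livers and −0.32 to 0.55 with each library left out, and that of Cd68 −0.97 to 0.12. The cause was not tested. With 3 libraries per group, the SEs of the liver differences were 0.31 (Clec4f) to 0.76 (Marco) on the log2 scale.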
